A study of Mus musculus with 6 samples.

Results

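The respiratory chain genes described here are the protein-coding mouse genes for the subunits of the 4 electron transport complexes and of ATP synthase, chosen by symbol: mt-Nd, mt-Co, mt-Cytb and mt-Atp genes on the mitochondrial chromosome, and Nduf (a, b, c, s and v series), Sdha to Sdhd, Uqcr, Cox4 to Cox8 and Atp5 genes in the nucleus. The rule used names only and no measured value. It found 97 of the 46983 genes in the count tables. Of these, 13 are mitochondrially encoded and 84 are nuclear encoded (37 of complex I, 4 of complex II, 8 of complex III, 18 of complex IV and 17 of complex V, the ATP synthase). The 2 sets are reported apart.

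The study sequenced polyadenylated RNA of mouse myeloid colonies with and without Psip1, the gene of the chromatin reader LEDGF/p75. Bone marrow of C57BL/6 mice was depleted of lineage-positive cells, and the remaining progenitors formed colonies in methylcellulose to which mSCF (mouse stem cell factor), IL-3 and IL-6 had been added. Colonies were collected at 6 to 7 days. The age label reads 8 to 11 weeks, and the protocol gives 10 as the upper limit. Stranded libraries were made for 3 wild type (WT) samples, from mice that the design describes as Psip fl/fl, and for 3 Psip1 knockout (KO) samples, whose allele it marks Vav. The driver of the deletion is not spelled out in the sources used here. The labels do not say whether the 3 samples of a group came from separate animals or cultures, so p-values measure the spread between these samples, which may be technical.

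Sequencing depth was very uneven. Of the 6 libraries, 5 hold 7056614 to 15569088 reads assigned to genes and are called the deep libraries. WT replicate 3, its 2 sequencing runs summed, holds 27909, so that 1 read there equals 29.9 counts per 1000000 gene reads (CPM) after normalisation and 3 reads equal 89.6. Its values are therefore given as reads. Psip1 checked the labels: WT replicate 1 had 89.3 CPM, WT replicate 2 had 70.0 CPM and WT replicate 3 had 3 reads, whereas the KO libraries had 14.8, 17.6 and 16.3 CPM. Its log2 fold change, KO over WT, was -2.32 (SE 0.32, adjusted p = 0.0599 by edgeR's quasi-likelihood test). The groups did not overlap for Psip1 in the deep libraries. Summed neutrophil markers (12 genes) ranged from 45312 to 101278 CPM in the WT and from 35769 to 90107 CPM in the KO libraries, while summed erythroid markers (11 genes) were at 50.1 and 170 CPM in the deep WT libraries and at 53.4, 160 and 22.6 CPM in KO replicates 1 to 3.

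The respiratory chain passes electrons from NADH (complex I) and succinate (complex II) through ubiquinone, complex III and cytochrome c to oxygen at complex IV, and complex V uses the resulting proton gradient to make ATP. The mitochondrial chromosome supplies a small core of subunits for complexes I, III, IV and V, transcribed as long polycistronic RNAs from both strands, whereas complex II and all other subunits come from nuclear genes and are imported. Neutrophils are known to hold few mitochondria and to rely mostly on glycolysis.

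Of the 13 mitochondrially encoded genes, 6 had no read in any library: mt-Co2, mt-Atp8, mt-Atp6, mt-Co3, mt-Nd3 and mt-Nd4l. They lie side by side on the mitochondrial chromosome, between mt-Co1 and mt-Nd4, and encode subunits of complexes IV, V, V, IV, I and I. A count of 0 allows up to 3 reads placed at 1 site, or 0.198 to 0.475 CPM in the deep libraries. It sets no limit on reads placed at more than 1 site, and so none on the level of these genes. All 3 count columns of the tables, unstranded and for each strand, held 0 for them. In the GENCODE annotation of GRCm38 a near-identical stretch stands on the minus strand of chromosome 1, 4663 bases long, where 7 pseudogenes match 7 of the mitochondrial genes. The tables keep reads placed at more than 1 site in a row of their own, outside all genes, and this row was 14.4% to 27.0% of the reads of a library.

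The start of 3 of these pairs shows how close the copies are. Each line gives 120 bases of the coding strand, 5′ to 3′, in GRCm38, and capitals mark the bases that differ within a pair.
mt-Co2 (chrM:7013-7132, plus strand): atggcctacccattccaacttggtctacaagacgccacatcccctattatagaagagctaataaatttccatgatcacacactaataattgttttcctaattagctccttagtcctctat
Gm28661 (chr1:24615446-24615565, minus strand): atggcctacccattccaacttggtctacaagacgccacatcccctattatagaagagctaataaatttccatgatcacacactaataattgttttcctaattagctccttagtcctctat
mt-Nd3 (chrM:9459-9578, plus strand): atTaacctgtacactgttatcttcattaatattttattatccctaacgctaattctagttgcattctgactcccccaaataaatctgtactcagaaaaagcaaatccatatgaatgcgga
Gm28438 (chr1:24613000-24613119, minus strand): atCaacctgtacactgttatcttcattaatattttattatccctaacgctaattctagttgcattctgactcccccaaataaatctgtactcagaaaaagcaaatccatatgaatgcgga
mt-Co1 (chrM:6381-6500, plus strand): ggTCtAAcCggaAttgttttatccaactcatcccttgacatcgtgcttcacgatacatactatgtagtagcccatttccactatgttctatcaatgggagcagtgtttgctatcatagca
Gm29216 (chr1:24616078-24616197, minus strand): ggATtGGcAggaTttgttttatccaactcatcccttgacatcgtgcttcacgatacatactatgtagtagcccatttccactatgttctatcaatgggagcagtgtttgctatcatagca

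The copy of mt-Co2, Gm28661, matched over all 681 of its bases with 0 mismatches. The copies of mt-Co3 (Gm28437, 783 bases), mt-Atp6 (Gm10925, 678 bases), mt-Nd4l (Gm10222, 294 bases) and part of mt-Nd4 (Gm28439, 876 bases) also had 0. The copy of mt-Nd3, Gm28438, had 1 mismatch in 345 bases, T3C, counted from 1 at the first base of mt-Nd3 with the mitochondrial base first. Gm29216 covers 492 bases of mt-Co1 with 6 mismatches, T1056A, C1057T, A1059G, A1060G, C1062A and A1066T, all at the start of the copied stretch, which begins at position 1054. mt-Atp8 has no annotated copy, but it starts between mt-Co2 and mt-Atp6, and the gap between their copies is 233 bases on chromosome 1 as on the mitochondrial chromosome. The copies themselves held few reads: the highest was Gm28438, with 0, 3 and 0 reads in WT replicates 1 to 3 and 6, 9 and 0 in KO replicates 1 to 3.

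Most of the uncounted genes share nearly all of their sequence with another gene. The share of a gene's 50-base windows that also occur in another annotated gene was 100% for mt-Co2, 99.9% for mt-Co3, 99.5% for mt-Atp6, 98.8% for mt-Nd4l and 98.0% for mt-Nd3. It was 62.2% for mt-Nd4 and 51.1% for mt-Co1, which kept reads, 8.19% for mt-Nd2, 7.61% for mt-Nd5, and 0% for mt-Nd1, mt-Nd6 and mt-Cytb. mt-Atp8 was also at 0%, yet had no read. The share of the multiply placed reads that came from these genes was not tested. Where the reads of mt-Nd4 and mt-Co1 lie along these genes was not tested either. No level of mt-Co2, mt-Co3, mt-Nd3, mt-Nd4l or complex V's mitochondrial subunits can be read from these tables.

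**Figure D1:**
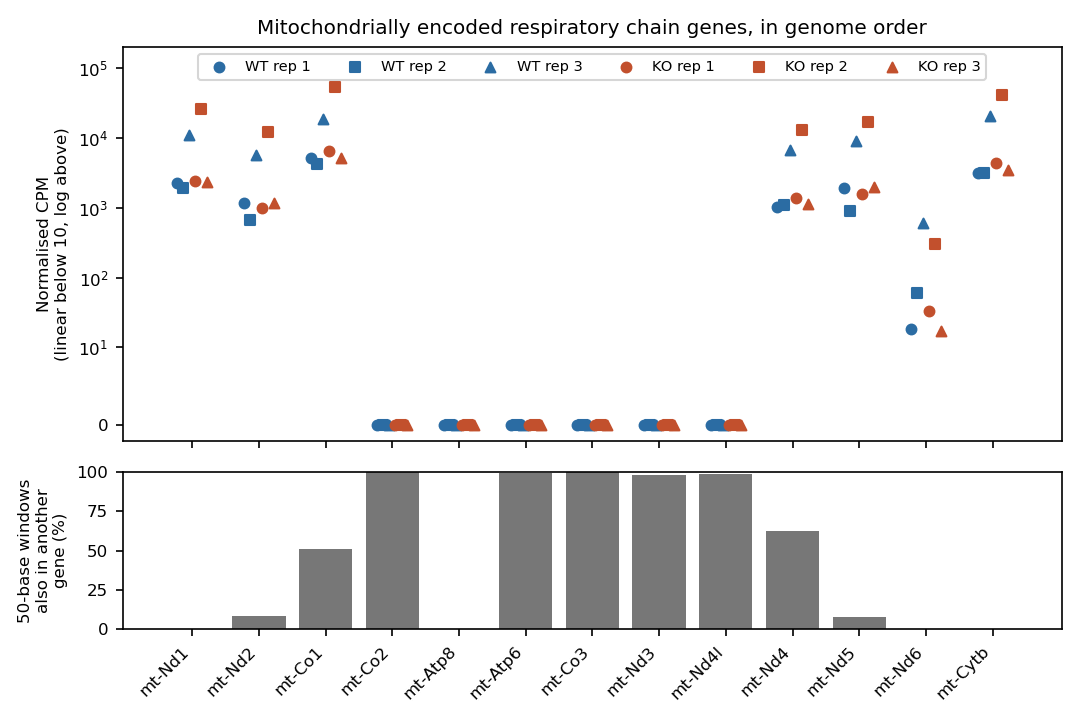
Upper panel: normalised CPM (y axis, linear below 10 and logarithmic above) of the 13 mitochondrially encoded genes in genome order, one point per library, blue for WT and red for KO. Lower panel: per cent of each gene's 50-base windows found in another annotated gene. The 6 adjacent genes from mt-Co2 to mt-Nd4l are at 0 in every library, and KO replicate 2 and WT replicate 3 stand above the other libraries for the 7 counted genes. The bar of mt-Atp8 is at 0, since no annotated gene shares a window with it.

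Mitochondrially encoded genes took a very different share of the gene reads from library to library. Only the 7 counted genes enter this share, and the RNA of the uncounted ones is missing from it by an unknown amount. The share was 1.41%, 1.18% and 8.68% in WT replicates 1 to 3 (95% Wilson interval in WT replicate 3, 8.35% to 9.01%, for counting error only). It was 1.73%, 14.5% and 1.47% in KO replicates 1 to 3. KO replicate 2 and WT replicate 3 were thus high, one library of each genotype, and the other 4 lay close together. The means were 3.76% ± 4.26 (SD, n = 3) in WT and 5.91% ± 7.47 (SD, n = 3) in KO, a difference of 2.16 percentage points (exact two-sided permutation test, p = 0.5, where 3 against 3 samples can reach 0.1 at the lowest). Without KO replicate 2 the difference was -2.15 points.

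The same libraries stood apart in other measures. Reads on the mitochondrial ribosomal RNAs mt-Rnr1 and mt-Rnr2 took 1.2% of gene reads in KO replicate 2, 0.835% in WT replicate 3 and 0.0833% to 0.109% in the rest. Reads assigned to no gene were 39.9% of the reads in KO replicate 2 and 47.8% in WT replicate 3, against 25.6% to 28.6% elsewhere. They include unmapped, multiply placed and ambiguous reads as well as those outside genes. Multiply placed reads, a part of these, were 27.0% in KO replicate 2 and 23.0% in WT replicate 3, against 14.4% to 19.2%. Unmapped reads, another part, were 15.8% in WT replicate 3 and 1.03% to 1.46% in the deep libraries. The summed level of the 13 mast cell and basophil markers, none of them at 0 throughout, was also highest in KO replicate 2. It was 9206 CPM there against 2954 to 5694 CPM in the other deep libraries, while WT replicate 3 lay within that range. The members differed: Cpa3, Hdc, Gata2, Mcpt8 and Tpsb2 were highest in KO replicate 2. Fcer1a, Kit, Cma1, Mcpt1, Mcpt2, Mcpt4, Tpsab1 and Ms4a2 were higher in another deep library, and Kit was lowest in KO replicate 2. The part of these measures in the mitochondrial share was not tested.

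**Figure D2:**
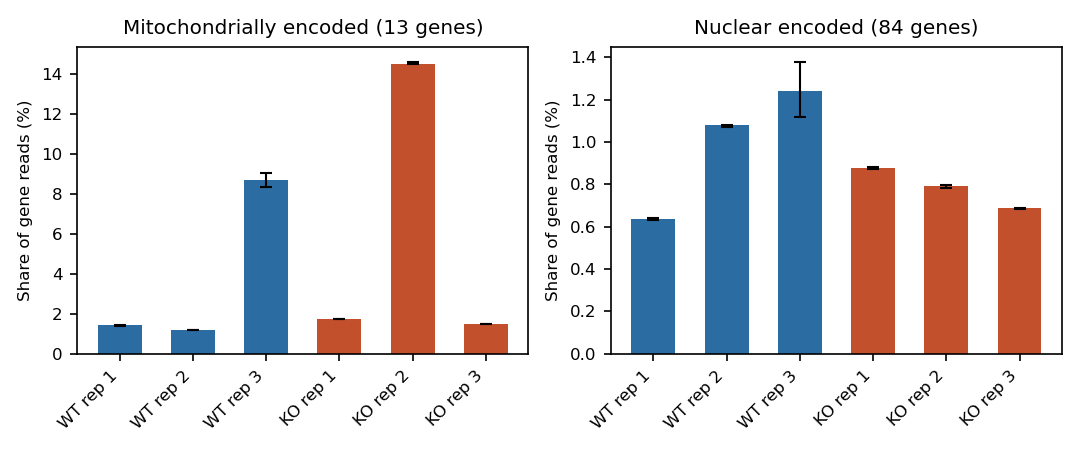
Share of gene reads (y axis, per cent) on the 13 mitochondrially encoded genes (left, only 7 of them with reads) and the 84 nuclear encoded genes (right) in each library, blue for WT and red for KO. Whiskers are 95% Wilson intervals for counting error. The mitochondrial share is 14.5% in KO replicate 2 and 8.68% in WT replicate 3 and at most 1.73% elsewhere, while the nuclear share spans 0.636% to 1.24%.

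Among the complex I genes, mt-Nd1, a membrane subunit at the ubiquinone site, had 2247 CPM in WT replicate 1, 1946 CPM in WT replicate 2 and 364 reads in WT replicate 3. Its KO values were 2401, 25637 and 2348 CPM for replicates 1 to 3. KO replicate 2 was far above the other deep libraries, which differed little. mt-Nd2, a proton-pumping membrane subunit, had 1163 and 672 CPM in the deep WT libraries, 189 reads in WT replicate 3, and 999, 12049 and 1166 CPM in the KO libraries. WT replicate 2 was the lowest here. mt-Nd4, another proton-pumping subunit, was at 1013 and 1096 CPM with 224 reads in WT, and the KO libraries had 1368, 12865 and 1137 CPM. mt-Nd5, the pumping subunit at the tip of the membrane arm, was at 1919 and 890.5 CPM with 299 reads in WT and at 1585, 17080 and 1953 CPM in KO. WT replicate 2 was again low for mt-Nd5.

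mt-Nd6 is the only protein gene on the opposite strand of the mitochondrial chromosome, and it was counted at a far lower level than the rest. WT replicates 1 and 2 had 18.1 and 60.8 CPM, WT replicate 3 had 20 reads, and the KO libraries had 33.0, 304 and 17.02 CPM. Reads from the strand opposite to mt-Nd6 were far more frequent than its own. Of the reads over mt-Nd6 counted on either strand, 97.4%, 91.0% and 88.7% were antisense in WT replicates 1 to 3, and 95.3%, 96.3% and 97.5% in KO replicates 1 to 3. Counts without strand would thus mostly report the other strand for this gene.

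For complex III, mt-Cytb, the cytochrome b core, had 3139 and 3169 CPM in the deep WT libraries, 694 reads in WT replicate 3, and 4406, 40994 and 3435 CPM in the KO libraries. For complex IV, mt-Co1, the catalytic subunit that reduces oxygen, had 5139 and 4203 CPM in the deep WT libraries and 632 reads in WT replicate 3, and its KO values were 6530, 53304 and 5093 CPM. KO replicate 2 again stood far above the rest for both genes. With WT replicate 3 converted to CPM, the mt-Co1 means were 9407 ± 8216 CPM (SD, n = 3) in WT and 21642 ± 27429 (SD, n = 3) in KO. In each group the SD was close to or above the mean.

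The 7 counted genes moved together between libraries. The ratio of KO replicate 2 to KO replicate 1 had a median of 9.40 over the 7 genes (8.16 to 12.1), and that of WT replicate 3 to WT replicate 1 a median of 4.86 (3.67 to 32.9, the highest being mt-Nd6). KO replicate 3 and WT replicate 1, of different genotype, had a median ratio of 1.02 (0.938 to 1.12). The spread within a genotype was therefore larger than the distance between these libraries of different genotype. In the deep libraries alone, mt-Nd1, mt-Nd4 and mt-Cytb were higher in every KO than in both WT libraries, 3 of 7 genes, beside 4.79% of all genes tested. Their lowest KO and highest WT values were close, such as 2348 against 2247 CPM for mt-Nd1.

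The make-up of the mitochondrial reads varied less than their amount. mt-Co1 held 35.1%, 34.9% and 26.1% of them in WT replicates 1 to 3 and 37.7%, 32.9% and 33.6% in KO replicates 1 to 3. mt-Cytb held 21.4%, 26.3% and 28.7% in the WT libraries, against 25.4%, 25.3% and 22.7% in the KO libraries. mt-Nd1 stayed between 13.9% and 16.2% in all libraries. WT replicate 3 was the lowest for mt-Co1 and the highest for mt-Cytb. Over the 7 genes the lowest p for a difference in share between genotypes was 0.3, for mt-Nd6 (exact two-sided permutation test, Benjamini-Hochberg adjusted p = 0.9 for each gene over the 7). mt-Nd5 was the most uneven of the abundant ones, ranging from 7.40% to 13.1% in WT and from 9.15% to 12.9% in KO. Antisense reads over mt-Nd5 were 9.03%, 7.14% and 4.29% in WT replicates 2 and 3 and KO replicate 1, and 0.638% to 1.35% in the other libraries.

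Levels between these genes were compared per 1000 start positions of 50 bases not found in another annotated gene, a scale chosen because mt-Co1 and mt-Nd4 share much of their sequence. It takes all counted reads to start at such positions, which was not tested. The median over the deep libraries was 7020 CPM per 1000 positions for mt-Co1, 3137 for mt-Cytb, 2586 for mt-Nd1, 2264 for mt-Nd4, 1281 for mt-Nd2, 1170 for mt-Nd5 and 70.1 for mt-Nd6. With 100-base windows, chosen like the first ones after the counts were seen since no source used here gives the read length, mt-Co1 was at 5134 and mt-Cytb at 3287. mt-Co1 thus led and mt-Nd6 came last with either window.

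No mitochondrially encoded gene passed the test between genotypes. Of 12292 genes tested with edgeR's quasi-likelihood test over all 6 libraries, 0 (0%) had an adjusted p under 0.05, among them 0 of the 7 mitochondrial genes. At an unadjusted p under 0.05 the numbers were 178 (1.45%) of all genes and 0 of 7. DESeq2 called 1 of 22213 genes (0.0045%) and no respiratory chain gene. The log2 fold changes, KO over WT, were 1.03 (SE 0.99) for mt-Nd1, 0.97 (SE 1.03) for mt-Nd2, 0.84 (SE 1.00) for mt-Nd4, 0.84 (SE 1.02) for mt-Nd5, 0.07 (SE 1.81) for mt-Nd6, 0.86 (SE 1.03) for mt-Cytb and 1.21 (SE 0.94) for mt-Co1, each with an adjusted p of 1. All 7 were above 0, with a median of 0.86 beside 0.01 over all genes tested. Under scaling by library size only, 1 of the 7, mt-Nd6, was below 0, and the median was 0.53.

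The direction for the mitochondrial genes hung on single libraries. Without KO replicate 2 all 7 were below 0, with a median log2 fold change of -1.14. Without WT replicate 3 the median was 2.27, and without both libraries it was 0.24. None of these fits called any of the 7, and without WT replicate 3 none of the 7 had an unadjusted p under 0.05 (1.07% of all genes did, and DESeq2 called 0.054% of all genes). Without WT replicate 1 the median was 0.57 and without WT replicate 2 it was 0.51. Without KO replicates 1 and 3 it was 1.31 and 1.40. In bulk RNA, more mitochondria per cell, more RNA per mitochondrion and more cells rich in mitochondria cannot be told apart.

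The nuclear encoded genes together took a smaller and steadier share. It was 0.636%, 1.08% and 1.24% of gene reads in WT replicates 1 to 3 (95% Wilson interval in WT replicate 3, 1.12% to 1.38%) and 0.877%, 0.790% and 0.686% in KO replicates 1 to 3. WT replicate 1 was the lowest and WT replicates 2 and 3 were the highest, so the WT libraries enclosed the KO libraries. The means were 0.985% ± 0.314 (SD, n = 3) in WT and 0.784% ± 0.0955 (SD, n = 3) in KO, a difference of -0.201 points (exact two-sided permutation test, p = 0.4). For each read on a nuclear encoded gene there were 2.21, 1.10 and 6.98 reads on the 7 counted mitochondrially encoded ones in WT replicates 1 to 3. In KO replicates 1 to 3 there were 1.98, 18.4 and 2.15. The high mitochondrial share of KO replicate 2 was thus not matched by the nuclear genes.

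Of the 84 nuclear encoded genes, 78 passed the filter on low counts. The other 6 (Cox4i2, Cox6a2, Cox7b2, Cox8b, Cox8c and Ndufa4l2) had at most 12 reads in any library. Levels between genes were compared as CPM per kilobase of exon (RPKM, over all annotated exons of a gene). This length can exceed that of a transcript, as for Uqcrc1, at 4135 bases of exon against 1653 in its longest coding transcript. Ranks between genes and complexes depend on it. The means over the deep libraries had a median of 37.6 for complex I, 48.8 for complex II, 64.5 for complex III, 84.5 for complex IV and 54.8 for complex V. The widest range was that of complex V, from 0.144 (Atp5l) to 211 (Atp5a1).

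The nuclear genes also moved together between libraries, but in another order than the mitochondrial ones. Among the deep libraries, 54 of the 78 genes were highest in WT replicate 2 and 48 were lowest in WT replicate 1. KO replicate 2 was highest for 21, and KO replicate 3 was lowest for 20. As median distance from each gene's own mean, on the log2 scale with 1 CPM added, WT replicate 1 was at -0.45 and WT replicate 2 at 0.43. KO replicates 1, 2 and 3 were at 0.12, 0.26 and -0.37. The ratio of WT replicate 2 to WT replicate 1 had a median of 1.84 over the 78 genes, more than the median of 1.42 between KO replicates 1 and 3 and of 1.06 between KO replicate 3 and WT replicate 1.

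This order was shared by short genes in general. Over all genes tested, those in the shortest of 3 equal classes of exon length (up to 3215 bases) were at -0.21 in WT replicate 1 and 0.19 in WT replicate 2. They were at 0.07, 0.14 and -0.18 in KO replicates 1, 2 and 3. The longest class was at 0.20, -0.20, -0.09, -0.11 and 0.17 in that order. Of the 78 respiratory chain genes, 64 were in the shortest class, 12 in the middle and 2 in the longest. Summed neutrophil markers were also higher in WT replicate 2 (101278 CPM) and KO replicate 1 (90107) than in WT replicate 1 (45312), KO replicate 2 (41542) and KO replicate 3 (35769). The part of gene length and of cell make-up in the spread between libraries was not tested.

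**Figure D3:**
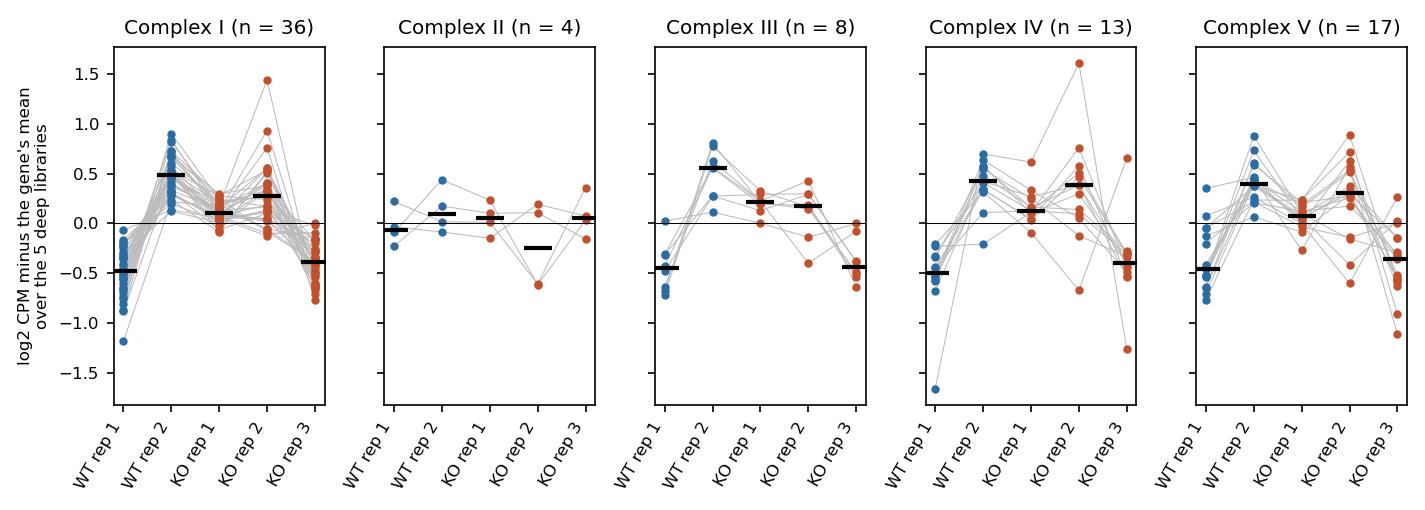
Each tested nuclear encoded gene in the 5 deep libraries, as log2 CPM minus the gene's mean over them (y axis), by complex. Grey lines join a gene's values, points are blue for WT and red for KO, and black bars are medians. In complexes I, III, IV and V the median is lowest in WT replicate 1, next lowest in KO replicate 3 and highest in WT replicate 2, while complex II is nearly flat apart from KO replicate 2.

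None of the 78 nuclear encoded genes passed the test, beside 0% of all genes, and 0 of 78 had an unadjusted p under 0.05, beside 1.45%. The log2 fold changes ran from -0.66 to 0.61, so all 78 were under 1 in size, as were 96.8% of all genes tested. They were below 0 for 54 of 78 (69.2%), beside 48.0% of all genes, and the median was -0.06. That split depended on scaling and libraries: 62 were below 0 under scaling by library size only and 47 with size factors taken without mitochondrial genes. Without WT replicate 2 only 9 were below 0 (median 0.30), without KO replicate 3 there were 27 (median 0.08), and without WT replicate 1 there were 72 (median -0.31). Only Uqcrc2 did not overlap between the groups of the deep libraries, 1 of 78 and lower in KO, beside 3.87% of all genes.

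**Figure D4:**
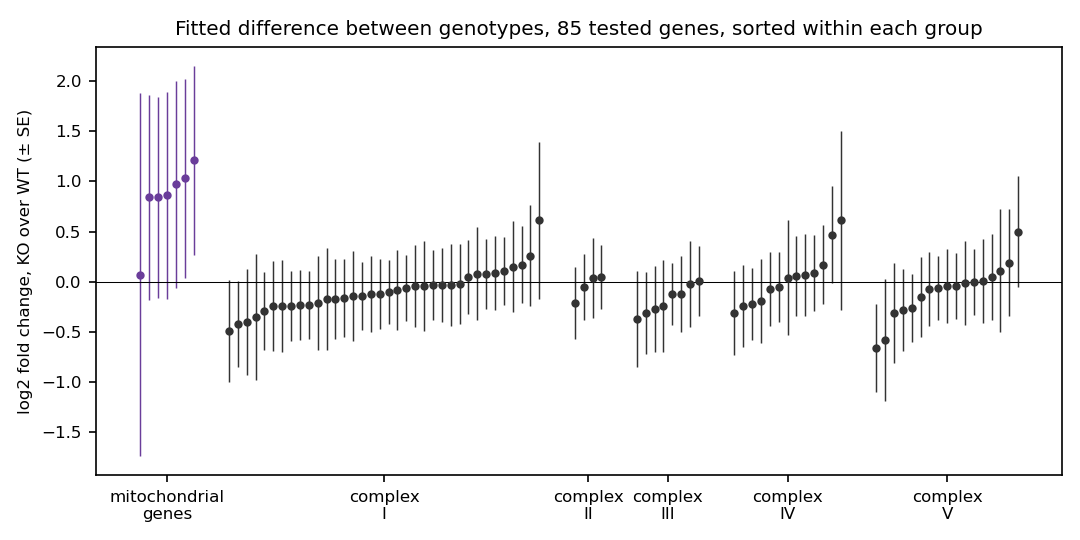
Fitted log2 fold change, KO over WT, with its standard error (y axis) for the 7 mitochondrially and 78 nuclear encoded genes tested, sorted within the mitochondrial set and each complex. The mitochondrial genes lie between 0.07 and 1.21 with standard errors of 0.94 to 1.81, and the nuclear genes between -0.66 and 0.61. No gene passed the test.

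In complex I, 27 of 36 tested genes were below 0 and 9 above, with a median log2 fold change of -0.11. The highest level was that of Ndufa1, a small accessory subunit of the membrane arm, at 116 and 162 RPKM in WT replicates 1 and 2, 129, 197 and 102 in KO replicates 1 to 3, and 1 read in WT replicate 3. Ndufa2, an accessory subunit of the matrix arm, was at 70.4 and 189 RPKM in WT, 133, 175 and 78.0 in KO, and 3 reads. Both were low in WT replicate 1 and KO replicate 3, and the groups overlapped. The genes with the lowest p were Ndufa13 (-0.49, SE 0.51) and Ndufs6 (-0.42, SE 0.43) below 0 and Ndufb4 (0.61, SE 0.78) and Ndufa3 (0.26, SE 0.50) above. Ndufa13, also known as GRIM-19, was at 74.0 and 145 CPM with 12 reads in WT and at 108, 136 and 71.3 CPM in KO. Ndufs6, a zinc-binding accessory subunit, was at 21.6 and 57.1 CPM with 2 reads in WT and at 34.5, 32.6 and 23.8 CPM in KO. WT replicate 2 was above and WT replicate 1 below every KO library. Ndufb4 was at 3.19 and 8.42 CPM with 2 reads in WT and at 8.18, 19.6 and 4.62 CPM in KO. It and Ndufb2 (2.22 to 3.13 RPKM over 5628 bases of annotated exon) had the lowest RPKM of the complex.

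Complex II, which also serves the citric acid cycle, has only nuclear genes. By their median these lay closer together in WT replicates 1 and 2 than those of the other complexes. Sdha, the flavoprotein that oxidises succinate, was at 269 and 233 CPM with 3 reads in WT and at 232, 151 and 295 CPM in KO. Sdhb, the iron-sulfur subunit, was at 88.1 and 84.99 CPM with 4 reads in WT and at 81.3, 103 and 95.1 CPM in KO. Sdhc and Sdhd are the membrane anchors. Sdhc was at 88.4 and 117 CPM with 5 reads in WT and at 111, 111 and 92.8 CPM in KO, and Sdhd at 134 and 193 CPM with 4 reads in WT and at 167, 93.0 and 146 CPM in KO. KO replicate 2 was the lowest deep library for Sdha and Sdhd and the highest for Sdhb. The log2 fold changes were 0.04 (SE 0.40), 0.05 (SE 0.32), -0.05 (SE 0.33) and -0.21 (SE 0.36) for Sdha to Sdhd. The median distance from the gene means in WT replicates 1 and 2 was -0.06 and 0.09, against -0.46 and 0.47 in complex I. Sdha and Sdhc, at 4126 and 3250 bases of exon, are in the middle length class, and Sdhb and Sdhd, at 2239 and 1231, in the shortest. Single genes of other complexes were also close in these libraries, such as Uqcrc2 at 139 and 148 CPM. The part of gene length in this was not tested.

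In complex III, 7 of 8 genes were below 0, with a median of -0.18. Uqcrc2 (chr7:120635176-120659524, plus strand, GRCm38), a core protein of the matrix side, was at 139 and 148 CPM with 5 reads in WT and at 137, 125 and 137 CPM in KO. Its groups of deep libraries did not overlap, but the distance was small, and the fit over all libraries gave -0.12 (SE 0.31, adjusted p = 1). Uqcrq, a small subunit that binds ubiquinone, had the lowest p, at 53.3 and 150 CPM with 7 reads in WT and at 110.1, 98.6 and 60.4 CPM in KO (-0.37, SE 0.48). Uqcr10, a small accessory subunit, was at 108 and 213 RPKM in WT and at 165.5, 164 and 102 in KO, the highest level of the complex (-0.31, SE 0.41). The only gene above 0 was Uqcrfs1, the Rieske iron-sulfur protein, at 0.01 (SE 0.35). The remaining named genes were Uqcrh, the hinge protein, at 79.5 to 191 RPKM, and Uqcrb and Uqcrc1 as the lowest by RPKM, at 34.1 to 58.3 and 29.6 to 57.6 over the deep libraries. Uqcrc1 had 122 to 238 CPM, so its low rank comes with its 4135 bases of annotated exon.

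In complex IV, 7 of 13 tested genes were above 0 and 6 below, with a median of 0.04. Cox6b1, a subunit of the intermembrane space side, was highest at 206 and 379 RPKM in WT, 306, 413 and 241 in KO, and 8 reads in WT replicate 3. Cox5a, a matrix-side subunit, was at 117 and 263 CPM with 10 reads in WT and at 212, 175 and 120.3 CPM in KO (-0.31, SE 0.42). Cox7c, a small membrane subunit, was at 6.46 and 6.56 CPM with 0 reads in WT and at 8.18, 12.8 and 5.61 CPM in KO (0.47, SE 0.48). KO replicate 3 was below both deep WT libraries for Cox7c, so the groups overlapped. Of its 50-base windows 27.9% occur in another annotated gene.

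Several complex IV subunits have isoforms made in different tissues, and here the widely expressed isoform was the only abundant one. Cox4i1 was at 155 and 342 RPKM in WT and at 257, 301 and 159 in KO, while Cox4i2, known from lung, had 1, 12 and 0 reads in WT and 1, 0 and 0 in KO. Its 12 reads in WT replicate 2 were the only ones beyond 1 read. Cox6a1 was at 165 and 366 RPKM in WT and at 263, 302 and 185 in KO, while Cox6a2, known from heart and muscle, had 1 read in WT replicate 2 and 0 elsewhere. Cox7a2 was at 122 to 203 RPKM and Cox7a1, known from heart and muscle, at 1.48 to 3.70. Cox7a2l, which takes part in joining complexes into supercomplexes, was at 26.8 to 49.5 RPKM.

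The testis isoform Cox6b2 was counted at a low level. It was at 1.18 and 6.01 RPKM in WT replicates 1 and 2 and at 5.68, 11.3 and 1.55 RPKM in KO replicates 1 to 3, with 18, 68 and 1 reads in WT and 80, 79 and 26 in KO. Both WT replicate 1 and KO replicate 3 were low, and the groups overlapped (0.61, SE 0.89). Cox7b (74.2 to 143 RPKM), Cox8a (71.2 to 152 RPKM) and Ndufa4 (80.2 to 133 RPKM), whose product was first assigned to complex I and is now placed in complex IV, were abundant. Their relatives Cox7b2, Cox8b, Cox8c and Ndufa4l2 had 0 reads in all 6 libraries, which allows up to 3 reads in each.

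**Figure D5:**
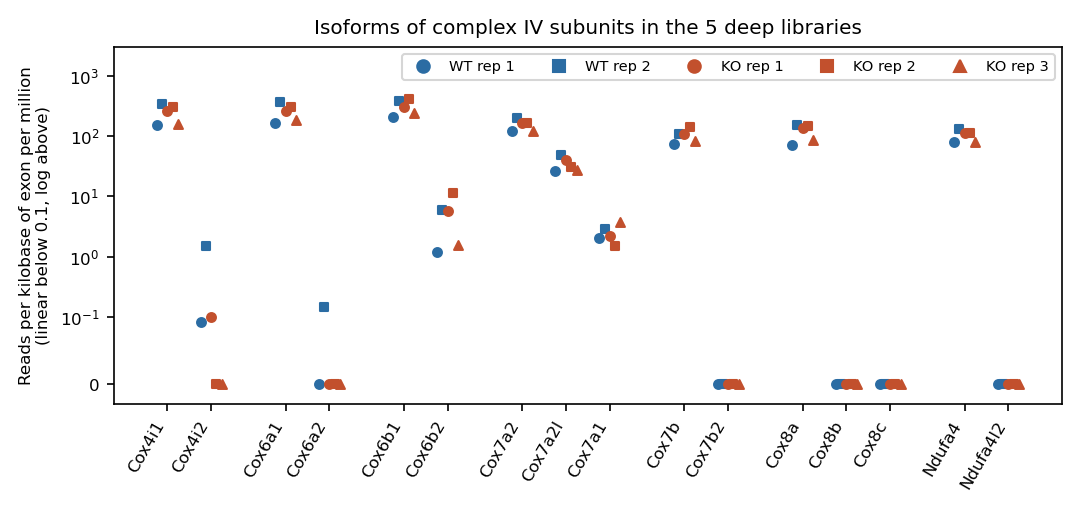
RPKM (y axis, linear below 0.1 and logarithmic above) of isoforms of complex IV subunits in the 5 deep libraries, blue for WT and red for KO, with related genes side by side. The first gene of each set lies at 71.2 RPKM or more in every library, Cox6b2 and Cox7a1 between 1.18 and 11.3, and Cox7b2, Cox8b, Cox8c and Ndufa4l2 at 0.

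In complex V, 12 of 17 genes were below 0, with a median of -0.04. The catalytic head subunits were the highest: Atp5a1 (alpha) was at 632 and 845 CPM with 24 reads in WT and at 681, 489.5 and 665 CPM in KO, and Atp5b (beta) at 870.0 and 991 CPM with 13 reads in WT and at 823, 544 and 991 CPM in KO. KO replicate 2 was the lowest deep library for both, unlike for most nuclear genes. Atp5d (chr10:80138632-80145818, plus strand, GRCm38), the delta subunit of the central stalk, had the lowest p of all nuclear genes. It was at 96.0 and 254 CPM with 11 reads in WT and at 148, 124 and 113 CPM in KO. Its means were 226 ± 119 CPM (SD, n = 3) in WT and 129 ± 17.9 CPM (SD, n = 3) in KO, and the log2 fold change was -0.66 (SE 0.44, adjusted p = 1 and unadjusted p = 0.16 by edgeR's quasi-likelihood test). WT replicate 1 lay below every KO library. Above 0 the lowest p were those of Atp5s, a distant member named as coupling factor B, at 3.63 and 7.25 CPM with 0 reads in WT and at 7.24, 11.4 and 4.09 CPM in KO (0.50, SE 0.55), and of Atp5g1 (0.19, SE 0.53).

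The 3 genes of subunit c, which forms the rotor ring and has the same mature protein from each gene, differed widely in counted level. Atp5g3 was at 83.95 and 155 RPKM in WT and at 125, 137 and 89.7 in KO. Atp5g1 was at 0.428 to 0.917 RPKM and Atp5g2 at 0.552 to 1.70. Of their 50-base windows, 11.6% for Atp5g1 and 11.1% for Atp5g2 occur in another annotated gene, against 0% for Atp5g3. The annotated exons of Atp5g1 span 4912 bases. The part of multiply placed reads in these low levels was not tested. Atp5l, subunit g of the membrane part, was the lowest of the 78 tested nuclear encoded genes at 0.0614 to 0.196 RPKM, with 15, 12 and 0 reads in WT and 9, 8 and 6 in KO (-0.58, SE 0.61). Of the 50-base windows of Atp5l, 68.5% occur in another annotated gene, the largest share among the 84 nuclear encoded genes, and its annotated exons span 6443 bases.

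Processed pseudogenes are common for these short genes, and their shared sequence varied together with the counted level. No 50-base window was shared for 49 of the 84 nuclear encoded genes, under 20% of windows for 25, and 20% or more for 10 (Ndufa12, Ndufb4, Ndufs3, Ndufs5, Uqcrb, Cox5b, Cox7c, Atp5f1, Atp5h and Atp5l). The median level of the genes tested was 57.2, 47.6 and 11.8 RPKM in these 3 classes. Levels of the last class, such as Ndufb4 (37.0% shared), Uqcrb (43.2%) and Atp5h (47.9%), are uncertain.

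The promoters of 66 of the 84 nuclear encoded genes were found by symbol in the RefSeq table for GRCm38.p6, as 250 bases before and 50 after the start. Genes of complexes I, III, IV and V moved together between libraries, in an order shared by short genes in general. Motifs of factors known to bind respiratory chain promoters were therefore counted, on both strands. The palindromic core bound by NRF1, GCGC and GCGC again after a spacer of NT, stood in 17 of 66 (25.8%), in 7.5% of all protein-coding genes with an entry, and in 11.9% of those tested. CCGGAAG, bound by ETS factors such as GABPA, stood in 24.2% of the members, 13.4% of all and 21.0% of those tested. AAGATGGCG, bound by YY1, stood in 10.6%, 2.26% and 3.79%. A base could count for more than 1 motif. The 3 promoters printed were chosen by level: Cox6a1 and Atp5k, the tested members of highest RPKM with an NRF1 match in the 250 bases, and the tissue isoform Cox8b, at 0 reads here. Each is given as the 250 bases before the start, 5′ to 3′ on the strand of the gene, with capitals for motif matches. Cox6a1 has NRF1 and ETS matches and Cox8b has none. Atp5k has 1 NRF1 match (its ETS match lies in the 50 bases after the start, which are not printed).
Cox6a1 (chr5:115348959-115349208, minus strand): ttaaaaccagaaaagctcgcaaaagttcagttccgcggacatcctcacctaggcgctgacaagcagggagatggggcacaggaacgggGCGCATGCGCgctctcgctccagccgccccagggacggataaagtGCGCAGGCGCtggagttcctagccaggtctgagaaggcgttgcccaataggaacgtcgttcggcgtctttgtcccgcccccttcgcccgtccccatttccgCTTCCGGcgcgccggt
Atp5k (chr5:108434400-108434649, minus strand): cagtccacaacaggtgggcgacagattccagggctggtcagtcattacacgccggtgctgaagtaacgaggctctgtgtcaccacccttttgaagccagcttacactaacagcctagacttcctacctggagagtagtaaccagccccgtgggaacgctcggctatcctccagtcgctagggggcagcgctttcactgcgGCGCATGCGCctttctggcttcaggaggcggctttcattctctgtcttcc
Cox8b (chr7:140900447-140900696, minus strand): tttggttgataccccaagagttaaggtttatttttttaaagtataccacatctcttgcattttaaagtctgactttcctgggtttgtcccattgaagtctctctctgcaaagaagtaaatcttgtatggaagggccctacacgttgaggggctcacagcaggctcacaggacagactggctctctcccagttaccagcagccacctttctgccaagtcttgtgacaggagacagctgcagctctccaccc

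The level of Cox6a1 was 165 to 366 RPKM over the deep libraries, and that of Atp5k, subunit e of the membrane part, was 99.7 to 238. The median ratio of WT replicate 2 to WT replicate 1 was 1.85 for the 17 tested genes with an NRF1 match and 1.85 for the 47 without. It was 2.06 and 1.84 for the 16 genes with and the 48 without an ETS match, and 1.81 and 1.85 for the 7 with and the 57 without a YY1 match. The median RPKM over the deep libraries was 45.5 with and 40.4 without an NRF1 match, 68.4 and 39 for ETS, and 31.4 and 52.2 for YY1. These ratios and levels are descriptions with no test.

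Genes that build, supply or regulate the chain were examined as 7 lists, and none of their members passed the test. The median log2 fold change was 0.04 for 16 tested carriers and subunits outside the name rule, -0.09 for 15 complex I assembly factors, 0.13 for 10 assembly factors of complexes II and III, and -0.01 for 26 of complexes IV and V. It was 0.03 for 19 genes of mitochondrial DNA upkeep and transcription, 0.05 for 18 genes of mitochondrial RNA processing, and 0.05 for 9 regulators, beside 0.01 over all genes. None of these genes had an unadjusted p under 0.05.

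Cycs, somatic cytochrome c, carries electrons from complex III to IV. It was at 1.89 and 3.23 CPM with 0 reads in WT and at 2.60, 6.49 and 2.38 CPM in KO (0.57, SE 0.60). Shared sequence was examined only for the genes of the name rule, not for Cycs, so the level of Cycs is uncertain. Cyc1, cytochrome c1 of complex III, was at 87.9 and 142 CPM with 2 reads in WT and at 120.4, 98.4 and 97.2 CPM in KO (-0.04, SE 0.35), and Ndufab1, the acyl carrier protein of complex I, had a log2 fold change of 0.07 (SE 0.41). Among the genes that make mitochondrial RNA, Tfam, which packs and helps transcribe the mitochondrial chromosome, was at 27.9 and 42.7 CPM with 1 read in WT and at 35.0, 30.9 and 25.5 CPM in KO. Polrmt, the mitochondrial RNA polymerase, was at 20.1 and 21.7 CPM with 0 reads in WT and at 19.2, 20.7 and 21.6 CPM in KO. Lrpprc, which stabilises mitochondrial mRNAs, was at 82.4 and 63.4 CPM with 4 reads in WT and at 62.9, 54.7 and 97.5 CPM in KO. KO replicate 2, where the mitochondrial genes stood 8.16 to 12.1 times above KO replicate 1, was within the range of the other deep libraries for Tfam and Polrmt. Other members of the lists of mitochondrial DNA upkeep, transcription and RNA processing differed. Highest in KO replicate 2, some by small margins, were Mterf1a, Mterf1b, Mterf2, Mterf3, Ssbp1, Dguok, Tefm, Tfb1m, Fastk, Supv3l1, Pnpt1 and Slirp. Lowest there were Lrpprc, Mgme1, Grsf1, Ptcd1, Ptcd2 and Elac2. The part of these genes in the mitochondrial share was not tested.

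Of the regulators, the coactivator Ppargc1a was nearly uncounted, at no more than 0.132 CPM, its relative Ppargc1b was at 2.45 to 5.81 CPM, and the factor Nrf1 at 34.0 to 56.5 CPM over the deep libraries. Pprc1, the third coactivator of that family, had the lowest p of the list, at 59.2 and 53.5 CPM with 1 read in WT and at 61.6, 88.4 and 71.3 CPM in KO (0.44, SE 0.33). Its deep WT and KO libraries did not overlap, as for 4.79% of all genes in that direction. Those of Nrf1 did not overlap either but were lower in KO, as for 3.87% of all genes. Nrf1 was at 56.5 and 56.2 CPM in the deep WT libraries and at 54.75, 34.0 and 55.2 CPM in KO. The nuclear receptor Esrra had the next lowest p of the list after Pprc1 (0.38, SE 0.39). In the other lists the members with the lowest p were Pdss2 (-0.36), Ndufaf7 (-0.51), Ndufaf4 (0.32), Ttc19 (0.52), Sdhaf3 (0.46), Fmc1 (-0.44), Coa3 (-0.24), Mterf1a (0.62), Polg (0.26), Fastk (0.39) and Pnpt1 (0.27), as log2 fold changes, with unadjusted p of 0.295 or more.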

How the data were processed

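The authors deposited read counts per gene, 1 table per sequencing run, with unstranded, first-strand and second-strand columns. STAR 2.5.1b, DESeq2 and GRCm38 are named in the submitters' processing notes; the annotation release and read length are not given in the sources used here. The column for the second strand was used (the fourth of each table), and both runs of WT replicate 3 were summed. Symbols, lengths and coordinates came from GENCODE M21 (GRCm38) by Ensembl ID without version, which matched 46488 of 46983 genes. Rows for unplaced, multiply placed, ambiguous and no-gene reads stayed out of library sizes.

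Genotypes were compared with edgeR 4.0.16 in R 4.3.3, after the code was tested on simulated data. The settings were filterByExpr, TMM normalisation, a robust quasi-likelihood test, Benjamini-Hochberg adjustment over all genes tested and a threshold of 0.05. In the simulated data 8 of 50 genes with a log2 change of 1 were called, so changes of that size would mostly be missed. With a change of 2, 42 of 50 were called. There were 30 false calls among 12292 genes. The changed genes were drawn from all but the scarcer genes tested. The median SE in the real data was 0.42 over all genes tested and 1.02 for the mitochondrial ones. The simulated rates thus need not hold for the mitochondrial genes, where larger changes could also be missed. DESeq2 1.42.0 and limma-voom 3.58.1 were alternatives, as were other scalings, no filter, unstranded counts, 1 run of WT replicate 3, a replicate block and leaving out each library. CPM use TMM-scaled library sizes. Shares were compared by exact permutation tests. Genes named are all mitochondrial and Sdh genes, per other complex up to 2 genes of lowest p in each direction and the 2 highest and 2 lowest by RPKM, the isoform sets, and in each further list the 2 of lowest p and 9 set genes. Uqcrc2, Atp5k and the pseudogene-rich genes listed were named for levels, overlap or sequence after their values were seen. Members and lists were chosen with earlier results of these data known.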

Additional observations from a re-analysis of the deposited data

How the results depend on the processing

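No respiratory chain gene was called under any alternative run. Over all genes, where the main test called 0, scaling by library size only called 2, no filter on low counts 9, DESeq2 1, the replicate block 13, and an adjusted p under 0.1 4; leaving out 1 library each gave 0 to 5 calls (5 without WT replicate 1 and without KO replicate 3), and DESeq2 without WT replicate 3, added after seeing the data, gave 12. The median log2 fold change of the mitochondrial genes ran from -1.14 (without KO replicate 2) to 2.27 (without WT replicate 3) when 1 library was left out, and from 0.39 to 0.95 under the 8 alternatives that keep all libraries. It was 0.24 without both WT replicate 3 and KO replicate 2, and 2.24 with DESeq2 without WT replicate 3. Their difference in share of gene reads ran from -2.15 to 4.62 percentage points when 1 library was left out, below 0 only without KO replicate 2. The median of the nuclear genes ran from -0.31 to 0.30 when 1 library was left out and from -0.13 to 0.01 with all libraries kept. Deviations from the group means correlated at -0.33, -0.05 and -0.21 for same-numbered samples. For samples of different number the correlations ran from -0.26 to 0.50, the highest for WT replicate 1 with KO replicate 3. With 3 samples per group, WT replicate 3 among them, these values cannot decide whether the samples were paired. The replicate block gave a median of 0.39 for the mitochondrial and 0.01 for the nuclear genes. Of 47 genes given by the naming rule, Psip1 aside, 32 had the opposite sign in at least 1 of 16 alternatives, and none of the 47 was called. Psip1 was below 0 in all 16. Without a filter, 1 nuclear gene, Cox4i2, had an unadjusted p under 0.05, resting on its 12 reads in WT replicate 2. At 27909 gene reads, WT replicate 3 gives 0 to 24 reads for each nuclear encoded gene, so that single genes cannot be read there.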
